A study of Mus musculus with 10 samples.

Results

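The mitosis and spindle genes are 50 genes whose products build the spindle, attach chromosomes to it, time their separation and split the cell. They were taken by gene symbol from a table of 54532 genes, and all 50 were found. A gene was tested where its normalized counts averaged 10 or more, which all 50 did. The RNA came from mouse peritoneal macrophages, phagocytes that live in the fluid around the abdominal organs, and 10 libraries fell into 3 groups. These were aged mice with both copies of Trem1 deleted according to their label (Trem1-/-, n = 3 libraries, replicates 1, 2 and 3), aged wild-type mice (n = 3, replicates 3, 4 and 6) and young wild-type mice (n = 4, replicates A, B, C and E). Trem1 encodes a myeloid receptor that amplifies inflammatory signals, and the study asked how its deletion alters gene expression with age. There was no young group of the Trem1-/- genotype, so age and genotype could not be crossed. The labels give no age in months, no sex, no sorting step and no statement that libraries came from separate mice, so the p-values measure the spread between these libraries, which may be technical. Trem1 itself was read in all 10 libraries, at 23.5, 105.8 and 13.8 normalized counts in the libraries labelled Trem1-/-, 64.0, 15.3 and 26.95 in aged wild type, and 14.8, 8.01, 12.01 and 24.4 in young wild type. The values overlapped between all groups, so they do not check the label, and the genotype is used here as labelled.

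In mitosis the kinase Cdk1, bound to cyclins A and B, drives a cell to condense its chromosomes and build a spindle of microtubules. Kinetochores tie each chromosome to the spindle, and a checkpoint holds back the anaphase-promoting complex until all are attached. Separase then cuts the rings that hold sister chromatids together, and a ring of actin and anillin pinches the cell apart. Most of these genes are transcribed late in the cell cycle, under MuvB complexes, B-Myb and FoxM1, and are nearly silent in resting cells. Peritoneal macrophages are long-lived cells that renew themselves locally by division, so a small cycling share is a known feature of this population.

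The libraries held 2663744 to 5603498 reads. The resident macrophage label was checked with 19 markers, whose summed normalized counts were 118900 to 142300 in the libraries labelled Trem1-/-, 40950 to 68780 in aged wild type and 129000 to 137000 in young wild type. None of the 19 was at 0 in all libraries. B cell markers (15 genes) summed to 6839 to 14080 in the libraries labelled Trem1-/-, 14930 to 23980 in aged wild type and 2728 to 5978 in young wild type. T and NK cell markers (15 genes) summed to 73.6 to 171 in the libraries labelled Trem1-/-, 362 to 614 in aged wild type and 62.8 to 117 in young wild type. Erythroid markers reached 23870 in aged wild-type replicate 4 and stood at 9.30 to 764 in the other 9 libraries. Mitochondrial transcripts took 1.26 to 2.38% of reads in the libraries labelled Trem1-/-, 3.17 to 5.26% in aged wild type and 1.19 to 2.13% in young wild type. The noncoding RNA Gm26917 took 4.999 to 5.68% of reads in the libraries labelled Trem1-/-, 8.38 to 12.9% in aged wild type and 5.06 to 5.70% in young wild type. Mesothelial and fibroblast markers summed to 22.5 to 524 in the libraries labelled Trem1-/-, 667 to 731 in aged wild type and 12.3 to 525 in young wild type. Neutrophil and eosinophil markers, of which only 1 of 13 had enough counts to be tested, summed to 760.3 to 770 in the libraries labelled Trem1-/-, 223 to 555 in aged wild type and 646 to 915 in young wild type. Small macrophage and dendritic cell markers summed to 6281 to 8900, 6217 to 7341 and 7149 to 8853 in the same order of groups. Mast cell markers summed to 419.9 to 1982, 945 to 2282 and 241.7 to 1424 in that order. The aged wild-type libraries thus stood apart in these measures except the erythroid, small macrophage and dendritic, and mast cell ones, where the groups overlapped. The counts of the mitosis and spindle genes in comparisons with aged wild type are given with and without a scaling to the macrophage markers.

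Read together, the 50 genes were lowest in aged wild type, higher in the libraries labelled Trem1-/- and highest in young wild type. Their summed normalized counts were 3109, 2818 and 2335 in the libraries labelled Trem1-/-, 1531, 1566 and 2250 in aged wild type, and 5491, 4214, 6544 and 9849 in young wild type. The groups did not overlap. The mean was 2754 ± 391 in the libraries labelled Trem1-/- (SD, n = 3), 1782 ± 405 in aged wild type (SD, n = 3) and 6524 ± 2412 in young wild type (SD, n = 4). The sum rested on 2036 to 3518 reads per library labelled Trem1-/-, 1196 to 2504 reads in aged wild type and 5449 to 8474 reads in young wild type. As a share of all reads, this was 0.0649 to 0.0877% in the libraries labelled Trem1-/-, 0.0449 to 0.0693% in aged wild type and 0.122 to 0.271% in young wild type. Depth was thinnest in aged wild type, where 21, 13 and 4 of the 50 genes had under 10 reads. In the libraries labelled Trem1-/- 2, 0 and 6 genes did, and in young wild type none did. In such bulk samples, fewer dividing cells and less of each transcript per dividing cell cannot be told apart.

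Set against the macrophage markers, the order of the groups was another. Per 1000 macrophage marker counts, the 50 genes came to 24.0, 19.8 and 19.6 in the libraries labelled Trem1-/-, 37.4, 22.8 and 39.3 in aged wild type, and 42.6, 31.9, 48.1 and 71.9 in young wild type. On this ratio every library labelled Trem1-/- was below every young library. Aged wild type overlapped the libraries labelled Trem1-/- through replicate 4 and overlapped young wild type through replicates 3 and 6.

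**Figure D1:**
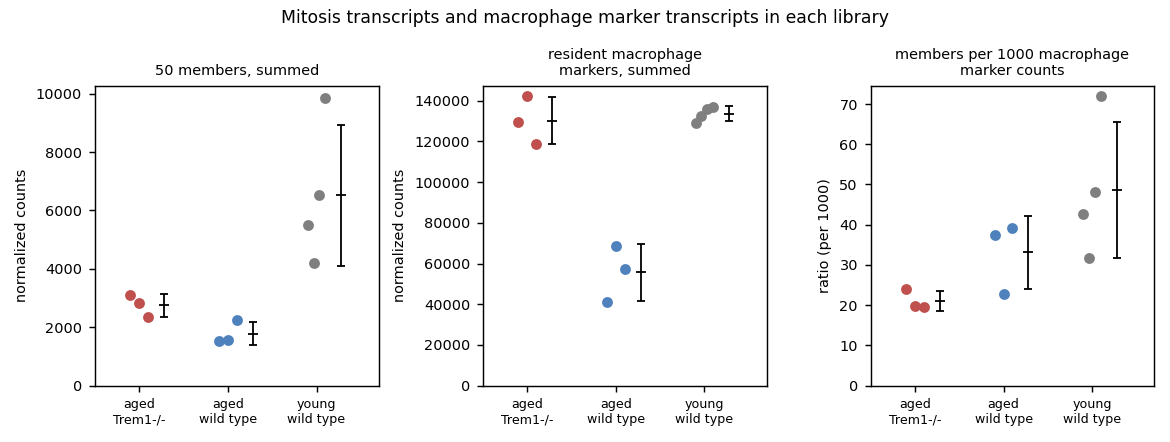
Summed normalized counts of the 50 mitosis and spindle genes, of 19 resident macrophage markers, and the first per 1000 of the second, for each library (points) with the group mean and SD (bars) in aged Trem1-/- (n = 3), aged wild type (n = 3) and young wild type (n = 4). The sums of the 50 genes do not overlap between groups (2335 to 3109 in Trem1-/-, 1531 to 2250 in aged and 4214 to 9849 in young wild type), whereas on the ratio the libraries labelled Trem1-/- are lowest in mean, at 21.2, against 33.1 in aged wild type and 48.6 in young wild type.

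Within a group, many of the genes shared the same highest or lowest library, most clearly in young wild type. Among the young libraries, replicate E was the highest for 49 of 50 genes and replicate B the lowest for 46. The value in E was 1.36 to 3.70 times that in B, with a median of 2.43 over the 50 genes. Among the libraries labelled Trem1-/-, replicate 1 was the highest for 32 genes and replicate 3 the lowest for 31. In aged wild type, replicate 6 was the highest for 36 and replicate 3 the lowest for 28. The matching counts over all genes are not given, so these ranks are not shown to be particular to the 50 genes. The median coefficient of variation of a gene between libraries was 25.6% in the libraries labelled Trem1-/-, 40.4% in aged wild type and 39.6% in young wild type.

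**Figure D2:**
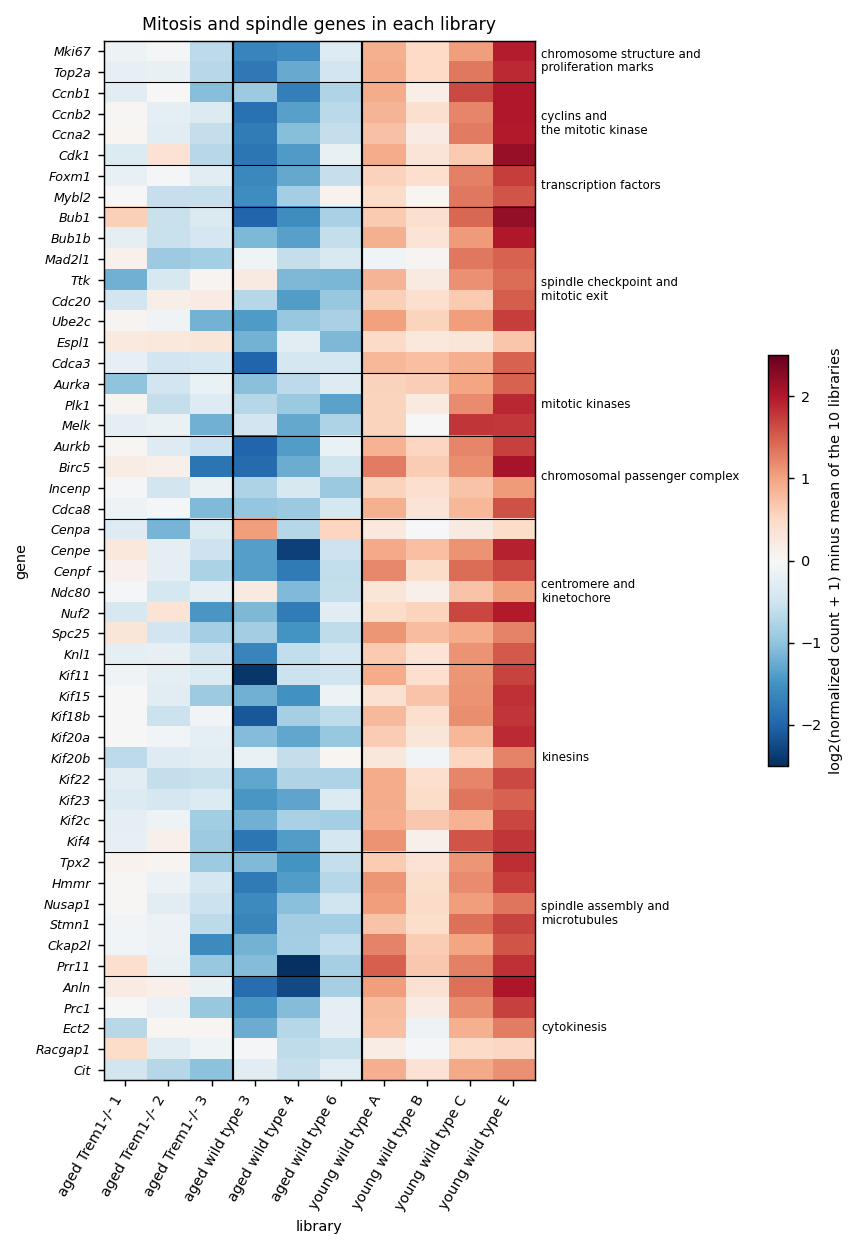
Level of each of the 50 genes (vertical, grouped by role) in each of the 10 libraries (horizontal), as log2(normalized count + 1) minus the gene's mean over the 10 libraries, with aged Trem1-/- on the left, aged wild type in the middle and young wild type on the right. Young replicate E is the highest of all 10 libraries for 48 genes, and Cenpa is the 1 gene that is highest in an aged library, aged wild-type replicate 3.

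As nearly all of these genes moved together, their promoters were examined for the 2 short elements known from late cell cycle promoters. These are the CHR, with the core TTTGAA, and the CCAAT box, which the factor NF-Y binds. Windows of 300 bases, from 250 before to 50 after the annotated start, were given by RefSeq on GRCm38.p6 for 43 of the 50 genes. Both strands were searched, and the 2 elements can overlap by 1 base and were counted separately. TTTGAA was present in 33 of 43 genes (76.7%), against 1260 of 8627 genes tested that have a window (14.6%) and 5466 of all 27025 genes with a window (20.2%). CCAAT was present in 30 (69.8%), against 43.3% of genes tested and 41.1% of all genes. Both together were present in 27 (62.8%), against 5.98% of genes tested and 7.97% of all. Counted from the start as position 1, TTTGAA from position -50 on was found in 31 genes (72.1%), against 3.95% of genes tested. The list was chosen by function and not by sequence, but the elements are known from promoters of such genes. List and elements were also chosen with earlier results of these data known. The shares are therefore not an independent test. Such a match is a description of the letters, not a measured binding site.

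The windows of 6 genes are printed as examples, with Ccnb2 and Cenpf as strongly lowered genes with both elements, Anln, Hmmr and Espl1 as the genes called higher for aged Trem1-/- over aged wild type, and Cenpa as the gene that did not follow the rest. Whether the elements bear on the changes in counts was not tested. Capitals mark TTTGAA or CCAAT on either strand (TTCAAA and ATTGG are their reverse complements). The windows lie at chr9:70421505-70421804 (Ccnb2, minus strand), chr1:189688037-189688336 (Cenpf, minus), chr9:22389157-22389456 (Anln, minus), chr11:40733388-40733687 (Hmmr, minus), chr15:102296043-102296342 (Espl1, plus) and chr5:30666636-30666935 (Cenpa, plus), and each is written 5′ to 3′ along the gene.
Ccnb2: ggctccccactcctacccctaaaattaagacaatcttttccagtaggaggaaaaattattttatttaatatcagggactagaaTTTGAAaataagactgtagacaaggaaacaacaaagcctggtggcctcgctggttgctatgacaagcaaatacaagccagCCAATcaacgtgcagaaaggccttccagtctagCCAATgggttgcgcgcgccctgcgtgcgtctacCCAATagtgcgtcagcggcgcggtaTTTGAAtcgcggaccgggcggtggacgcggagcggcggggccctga
Cenpf: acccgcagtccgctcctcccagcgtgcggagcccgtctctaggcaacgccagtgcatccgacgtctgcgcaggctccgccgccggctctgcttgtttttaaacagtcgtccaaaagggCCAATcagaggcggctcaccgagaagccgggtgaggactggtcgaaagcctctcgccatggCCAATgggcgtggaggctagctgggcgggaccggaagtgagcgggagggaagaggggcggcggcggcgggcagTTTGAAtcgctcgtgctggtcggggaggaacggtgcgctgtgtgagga
Anln: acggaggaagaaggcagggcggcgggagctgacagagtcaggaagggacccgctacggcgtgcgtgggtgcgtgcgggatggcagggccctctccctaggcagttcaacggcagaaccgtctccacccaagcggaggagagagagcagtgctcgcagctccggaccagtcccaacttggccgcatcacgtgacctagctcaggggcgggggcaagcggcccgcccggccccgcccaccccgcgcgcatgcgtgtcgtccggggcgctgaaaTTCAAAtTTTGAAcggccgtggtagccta
Hmmr: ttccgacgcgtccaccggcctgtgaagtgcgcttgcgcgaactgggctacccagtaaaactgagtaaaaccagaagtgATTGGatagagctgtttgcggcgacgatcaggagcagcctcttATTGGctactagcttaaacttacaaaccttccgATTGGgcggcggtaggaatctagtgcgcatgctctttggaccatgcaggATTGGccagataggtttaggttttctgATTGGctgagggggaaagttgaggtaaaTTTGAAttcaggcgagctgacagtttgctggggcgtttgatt
Espl1: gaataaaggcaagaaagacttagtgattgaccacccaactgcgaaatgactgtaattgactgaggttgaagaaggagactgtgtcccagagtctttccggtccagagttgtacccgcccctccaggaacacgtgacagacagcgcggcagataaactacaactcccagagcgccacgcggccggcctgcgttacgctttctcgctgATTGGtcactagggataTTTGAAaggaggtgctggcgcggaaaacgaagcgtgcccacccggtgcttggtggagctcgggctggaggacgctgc
Cenpa: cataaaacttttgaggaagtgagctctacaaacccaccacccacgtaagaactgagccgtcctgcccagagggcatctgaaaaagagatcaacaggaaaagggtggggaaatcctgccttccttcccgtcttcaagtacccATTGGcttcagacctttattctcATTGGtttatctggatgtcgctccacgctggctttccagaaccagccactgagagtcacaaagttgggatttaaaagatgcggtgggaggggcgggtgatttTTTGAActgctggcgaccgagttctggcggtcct
All 6 hold TTTGAA within 50 bases of the start, beginning at position 5 in Ccnb2, 3 in Cenpf, 29 in Anln, 9 in Hmmr, -27 in Espl1 and 17 in Cenpa. Anln holds a second match on the other strand at position 22 and no CCAAT. Hmmr holds 5 CCAAT boxes, all on the opposite strand. Of the 3 genes that did not pass the test in aged against young wild type, Cenpa and Kif20b hold TTTGAA and Mad2l1 does not.

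**Figure D3:**
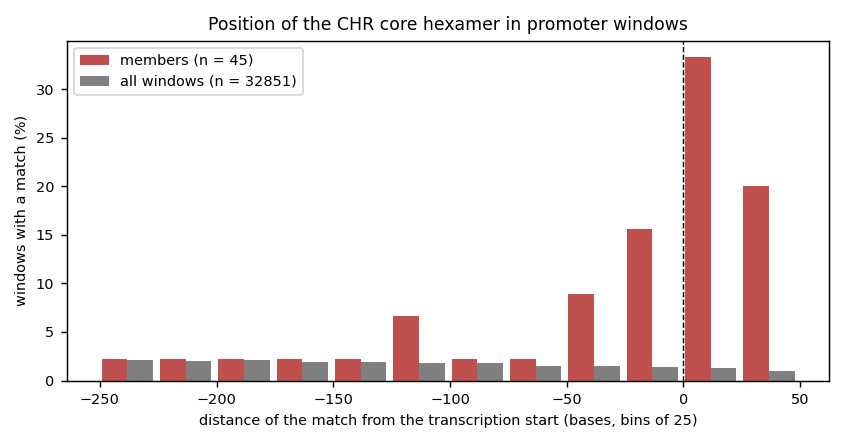
Share of promoter windows (vertical, %) with a TTTGAA match starting in each bin of 25 bases, by distance from the annotated start (horizontal, bases), for 45 windows of the 43 mitosis and spindle genes with a window (red) and for all 32851 windows (grey). The bin from the start to 25 bases after it holds a match in 33.3% of the windows of these genes and in 1.31% of all windows.

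The first question was how these genes differ with age in wild-type mice. In aged wild type 47 of the 50 genes fell, 0 rose and 3 did not pass the test (limma-trend on log2(normalized count + 1), Benjamini-Hochberg adjusted p under 0.05 over 11506 genes). Of all genes tested, 19.0% fell and 14.3% rose, so the share of these genes that fell was far above the background. The median log2 fold change of the 50 genes was -2.02, against -0.02 over all genes, and they ranged from -2.87 for Anln to 0.04 for Cenpa. For 45 genes every aged wild-type library lay below every young one, as it did for 21.9% of all genes tested. The authors' deposited table of this comparison gave the same 47 genes as lower and the same 3 as not called, against 11.2% of the 17359 genes it tested as lower. On the scaling to macrophage markers, which moved the median of all genes to 1.19, 29 of the 50 genes were lower and Cenpa was higher (1.24, limma adjusted p = 0.0141), with a median of -0.86 over the 50. Of all genes tested on that scaling, 107 were lower and 9815 higher. Among the genes described next, Mybl2, Espl1, Aurka, Plk1, Incenp, Racgap1 and Cit did not pass the test on that scaling, with log2 fold changes of -0.83 to 0.52 and limma adjusted p of 0.0780 to 0.918.

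The 2 genes of chromosome structure and proliferation both fell, by more than the median of the 50. Mki67, which encodes the chromosome-coating protein Ki-67, had 553, 584 and 387 normalized counts in the libraries labelled Trem1-/-, 193, 203 and 489 in aged wild type, and 1123, 863, 1247 and 2358 in young wild type. All 3 aged wild-type libraries were below all young ones, while aged wild-type replicate 6 was inside the range of the libraries labelled Trem1-/-. Its log2 fold change in aged against young wild type was -2.27 ± 0.36 (SE; limma adjusted p = 0.000899). Top2a, the topoisomerase that untangles sister chromatids, had 186, 189 and 132 normalized counts in the libraries labelled Trem1-/-, 61.4, 89.5 and 154 in aged wild type, and 408, 302, 537 and 788 in young wild type. It was lower in all 3 aged wild-type libraries than in any young one (limma log2 fold change -2.32 ± 0.33, adjusted p = 0.000565). Per kilobase of exon, Mki67 was the most abundant of the 50 genes in young wild type, at 138.9 normalized counts per kb, with Incenp at 96.5 and Stmn1 at 90.9, though Stmn1 shares 42.5% of its transcript with Gm11223.

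All 4 genes of the Cdk1 engine fell, by 2.16 to 2.42 on the log2 scale. Cyclin B2 (Ccnb2), which binds Cdk1 at mitotic entry, had 35.8, 29.6 and 27.5 normalized counts in the libraries labelled Trem1-/-, 8.96, 13.1 and 21.6 in aged wild type, and 64.5, 46.8, 82.9 and 143 in young wild type. The 3 groups did not overlap, with aged wild type lowest and young wild type highest. Its log2 fold change in aged against young wild type was -2.42 ± 0.36 (limma adjusted p = 0.000685). Cyclin A2 (Ccna2), which acts earlier, had 51.1, 40.9 and 32.1 normalized counts in the libraries labelled Trem1-/-, 14.1, 22.9 and 32.3 in aged wild type, and 82.8, 57.3, 122 and 199 in young wild type, with the highest aged wild-type library inside the range of the libraries labelled Trem1-/- (limma log2 fold change -2.19 ± 0.39, adjusted p = 0.00149). Part of the transcripts of Ccnb1 (52.0%, shared with its pseudogenes) and Ccna2 (17.3%, overlapping Exosc9) could be counted for other genes, so their values are less certain.

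Both late cell cycle transcription factors fell. Foxm1 had 42.9, 47.3 and 40.1 normalized counts in the libraries labelled Trem1-/-, 15.4, 19.6 and 32.3 in aged wild type, and 73.2, 65.9, 118 and 164 in young wild type, again with no overlap between the 3 groups (limma log2 fold change in aged against young wild type -2.15 ± 0.32, adjusted p = 0.000664). Mybl2, which encodes B-Myb, had 24.5, 16.02 and 16.1 normalized counts in the libraries labelled Trem1-/-, 7.68, 13.1 and 26.1 in aged wild type, and 33.99, 25.2, 62.5 and 74.4 in young wild type. Aged wild-type replicate 6 was above young replicate B here, and the log2 fold change was -1.62 ± 0.44 (limma adjusted p = 0.0144). Without aged wild-type replicate 3 it was -1.23, with an adjusted p of 0.0658, and 28.3% of the Mybl2 transcript is shared with AC151978.1 and Gm3320.

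Of the 8 genes of the spindle checkpoint and of mitotic exit, 7 fell and Mad2l1 did not pass the test. Bub1b, the checkpoint kinase-like protein BubR1, had 48.02, 38.5 and 42.4 normalized counts in the libraries labelled Trem1-/-, 25.6, 21.8 and 37.7 in aged wild type, and 106, 73.3, 120.1 and 234 in young wild type. Its aged wild-type libraries were all below the young ones (limma log2 fold change -2.10 ± 0.33, adjusted p = 0.000792). Espl1, which encodes separase, had 262, 265 and 272 normalized counts in the libraries labelled Trem1-/-, 95.99, 182 and 99.7 in aged wild type, and 308, 263, 273 and 358 in young wild type. Only the aged wild-type libraries were low for this gene, and the libraries labelled Trem1-/- lay within the young range except replicate 1, just below it. In aged against young wild type it fell by 1.30 on the log2 scale, with an SE of 0.20 (limma adjusted p = 0.000785). Mad2l1, the checkpoint protein that inhibits Cdc20, had 25.5, 12.02 and 12.6 normalized counts in the libraries labelled Trem1-/-, 21.8, 15.3 and 17.97 in aged wild type, and 21.8, 24.6, 60.05 and 67.4 in young wild type, and its log2 fold change was -1.04 ± 0.42 (limma adjusted p = 0.0756). Every aged wild-type library was below every young one, if barely, with 21.76 in aged wild-type replicate 3 and 21.79 in young replicate A. Without young replicate A the log2 fold change was -1.31 with an adjusted p of 0.0374. On the reads, Mad2l1 had an adjusted p of 0.0476 in edgeR and 0.0391 in DESeq2. It passed in 2 of the 10 alternatives other than leaving out a library.

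The mitotic kinases Aurka, Plk1 and Melk all fell, by 1.59 to 1.96 on the log2 scale. Aurka, the kinase of the spindle poles, had 9.20, 13.6 and 17.2 normalized counts in the libraries labelled Trem1-/-, 8.96, 12.00 and 15.3 in aged wild type, and 29.6, 30.2, 39.6 and 55.8 in young wild type. All 6 aged libraries were below the 4 young ones, and the 2 aged groups overlapped (limma log2 fold change in aged against young wild type -1.59 ± 0.31, adjusted p = 0.00277). Plk1, which acts from mitotic entry to cytokinesis, had 18.4, 11.2 and 13.8 normalized counts in the libraries labelled Trem1-/-, 10.2, 8.73 and 6.29 in aged wild type, and 26.1, 20.9, 40.8 and 67.4 in young wild type. It was likewise lower in every aged library than in any young one (limma log2 fold change -1.96 ± 0.38, adjusted p = 0.00263). Plk1 stood at 6.29 to 18.4 normalized counts in the 6 aged libraries and so rests on few reads there.

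All 4 genes of the chromosomal passenger complex, which corrects faulty attachments, fell. Incenp, its scaffold, had 248, 186 and 227 normalized counts in the libraries labelled Trem1-/-, 148, 193 and 134 in aged wild type, and 377, 340.5, 419 and 535 in young wild type. It had the smallest adjusted p of the 50 genes (limma log2 fold change -1.39 ± 0.18, adjusted p = 0.000332), with every aged library below every young one. Aurkb, its kinase, had 33.7, 26.4 and 22.9 normalized counts in the libraries labelled Trem1-/-, 7.68, 12.00 and 29.6 in aged wild type, and 61.9, 48.6, 79.3 and 110.4 in young wild type. All 3 aged wild-type libraries were below the young ones for Aurkb too, with a log2 fold change of -2.26 ± 0.40 (limma adjusted p = 0.00144). Birc5, the survivin subunit, and Cdca8, borealin, made up the rest.

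Among 7 centromere and kinetochore genes, 6 fell. Cenpf, a large protein of the outer kinetochore, had 106, 84.1 and 56.2 normalized counts in the libraries labelled Trem1-/-, 37.1, 28.4 and 63.8 in aged wild type, and 228, 135, 259 and 306 in young wild type. The limma log2 fold change was -2.42 ± 0.32 (adjusted p = 0.000407), and the aged wild-type libraries were far below the young ones. Cenpe, the kinetochore motor that moves chromosomes to the spindle equator, had 77.7, 55.3 and 44.7 normalized counts in the libraries labelled Trem1-/-, 24.3, 12.00 and 44.9 in aged wild type, and 126, 109.6, 143 and 249 in young wild type. Its highest aged wild-type value was below the lowest young one (limma adjusted p = 0.000713). Cenpa, the histone variant that marks centromeres, was the exception. It had 58.2, 32.05 and 57.4 normalized counts in the libraries labelled Trem1-/-, 149.8, 43.6 and 105 in aged wild type, and 87.2, 73.3, 85.3 and 100 in young wild type. Aged wild-type replicate 3 was the highest of all 10 libraries and replicate 4 lower than every young one. Its log2 fold change in aged against young wild type was 0.04 ± 0.35 (limma adjusted p = 0.942), and it was -0.34 without aged wild-type replicate 3, -0.08 without replicate 6 and -0.03 without young replicate B.

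Of 9 kinesins, the motors of the spindle, 8 fell and Kif20b did not pass the test. Kif11, which pushes the spindle poles apart, had 68.5, 62.5 and 57.4 normalized counts in the libraries labelled Trem1-/-, 12.8, 50.2 and 51.2 in aged wild type, and 139, 98.5, 158 and 237 in young wild type. All aged wild-type libraries were the lowest, replicate 3 most of all (limma log2 fold change -2.19 ± 0.42, adjusted p = 0.00241). Kif23, a motor of the central spindle, had 48.02, 45.7 and 48.2 normalized counts in the libraries labelled Trem1-/-, 21.8, 24.01 and 48.5 in aged wild type, and 118, 84.98, 157 and 172 in young wild type. Its log2 fold change was -2.09 ± 0.29 (limma adjusted p = 0.000473), with no overlap between aged wild type and young. Kif20b had 38.8, 48.9 and 50.5 normalized counts in the libraries labelled Trem1-/-, 55.04, 40.4 and 63.8 in aged wild type, and 74.95, 58.5, 90.1 and 146 in young wild type. Aged wild-type replicate 6 lay above young replicate B, and its log2 fold change was -0.73 ± 0.28 (limma adjusted p = 0.0607). Without young replicate B it was -0.92, with an adjusted p of 0.0232. Kif20b passed in 2 of the 10 alternatives other than leaving out a library. Its adjusted p was 0.0391 with TMM scaling (limma) and 0.0426 on the reads in edgeR.

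All 6 genes of spindle assembly fell, with a median log2 fold change of -2.11. Stmn1, which encodes stathmin and destabilizes microtubules, had 74.6, 70.5 and 49.3 normalized counts in the libraries labelled Trem1-/-, 24.3, 42.6 and 43.1 in aged wild type, and 129.9, 107, 207 and 256 in young wild type. The groups did not overlap (limma log2 fold change in aged against young wild type -2.18 ± 0.31, adjusted p = 0.000506). Tpx2, which activates Aurora A on spindle microtubules, had 76.6, 76.1 and 37.9 normalized counts in the libraries labelled Trem1-/-, 33.3, 25.1 and 47.6 in aged wild type, and 112, 93.6, 157 and 262 in young wild type. It was lower in all aged wild-type libraries than in any young one (limma log2 fold change -2.05 ± 0.36, adjusted p = 0.00149). Prr11 had the second largest fall of the 50 genes and few reads. It had 16.4, 10.4 and 5.74 normalized counts in the libraries labelled Trem1-/-, 5.12, 1.09 and 6.29 in aged wild type, and 35.7, 19.7, 30.02 and 45.3 in young wild type, and its log2 fold change was -2.83 ± 0.50 (limma adjusted p = 0.00149).

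All 5 cytokinesis genes fell, and they spanned almost the whole range of changes. Anln, which encodes anillin, the scaffold of the contractile ring, had 58.2, 55.3 and 44.7 normalized counts in the libraries labelled Trem1-/-, 12.8, 9.82 and 27.9 in aged wild type, and 105, 66.5, 132 and 209 in young wild type. The groups did not overlap, and its log2 fold change of -2.87 ± 0.38 in aged against young wild type was the largest of the 50 (limma adjusted p = 0.000399). Racgap1, the GTPase-activating part of the central spindle, had 249, 148 and 169 normalized counts in the libraries labelled Trem1-/-, 178, 117 and 122 in aged wild type, and 206, 176, 252 and 258 in young wild type. Aged wild-type replicate 3 exceeded young replicate B (limma log2 fold change -0.69 ± 0.21, adjusted p = 0.0269). Its adjusted p without aged wild-type replicate 4 or 6 or young replicate C or E was 0.0697 to 0.0964. Cit, citron kinase, which acts at the end of cytokinesis, had 51.1, 42.5 and 34.4 normalized counts in the libraries labelled Trem1-/-, 57.6, 46.9 and 57.5 in aged wild type, and 133, 90.5, 137 and 158 in young wild type. Both aged groups were below the young one without overlap (limma log2 fold change -1.23 ± 0.20, adjusted p = 0.00111).

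**Figure D4:**
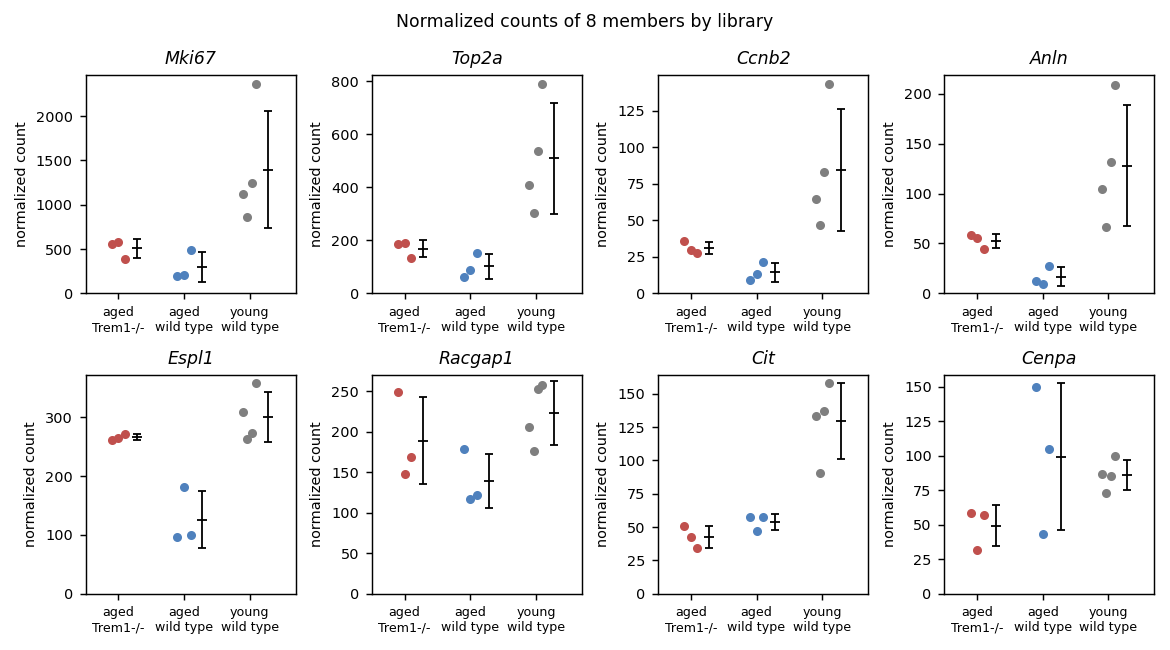
Normalized counts of 8 of the genes in each library (points) with the group mean and SD (bars), for aged Trem1-/- (n = 3), aged wild type (n = 3) and young wild type (n = 4). Mki67, Top2a, Ccnb2 and Anln are highest in young wild type, Espl1 is low only in aged wild type, Cit is low in both aged groups, and Cenpa is spread widely in aged wild type, at 43.6 to 149.8.

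Genes of the same pathway outside the 50 were counted in lists. Of 56 other mitosis genes, 48 were tested, and 37 fell and 1 rose in aged against young wild type, with a median log2 fold change of -1.59. The riser was Cdc25b, the phosphatase that activates Cdk1 (0.96 ± 0.21, limma adjusted p = 0.00463). Smc4, a condensin subunit with the most normalized counts of the list, was at -0.28 (limma adjusted p = 0.185). Promoter windows of these genes held TTTGAA in 24 of 44 (54.5%).

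The lists that follow are to be read against the shares over all genes, 19.0% lower and 14.3% higher. Of 18 genes of the RB, E2F and DREAM families, 6 fell and 3 rose, with a median of -0.26. The 3 that rose were E2f2 (1.18), Rb1 (0.83) and Lin37 (0.61), the last with a limma adjusted p of 0.0371 that was 0.0579 to 0.117 without aged wild-type replicate 3, 4 or 6 or young replicate A, C or E. Rbbp4 and Rbl2, which had the most normalized counts among them, were at -0.23 and 0.09 (limma adjusted p = 0.154 and 0.600). Of 16 genes of the anaphase-promoting complex, counted with Fzr1 and Ube2s, which are not core subunits, 2 fell and 0 rose, with a median of -0.13. Anapc5 and Anapc1, with the most normalized counts, were at -0.04 and -0.16 (limma adjusted p = 0.799 and 0.186).

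Of 15 cyclins, kinases and inhibitors of the earlier cell cycle, 5 fell and 3 rose. The D cyclins, which start the cycle, went different ways. Ccnd1 fell by 1.65 and Ccnd3 by 0.49, whereas Ccnd2 rose by 1.47 (limma adjusted p = 0.00290, 0.0122 and 0.000312). Ccne1 and the inhibitor Cdkn1b also rose, by 0.83 and 0.82 (limma adjusted p = 0.0345 and 0.00953), but for Ccne1 it was 0.0632 to 0.138 without aged wild-type replicate 3 or 6 or young replicate A, B or E. Of 14 tubulin genes, 11 were tested, with 3 lower and 2 higher. Tubb5, with the most normalized counts, fell by 0.58, and Tuba4a and Tubb2b rose by 1.27 and 1.15 (limma adjusted p = 0.00537, 0.000781 and 0.0226). For Tubb2b it was 0.0502 to 0.0885 without aged wild-type replicate 6 or young replicate B or E. Of 11 genes of macrophage growth signals, 10 were tested, with 5 lower and 1 higher. Csf1r, the receptor for the macrophage growth factor, fell by 1.16, and Il4ra rose by 0.91 (limma adjusted p = 0.000450 and 0.00620). On the scaling to macrophage markers, which shifts all genes alike and puts their median at 1.19, the list medians were 0.91 for the RB, E2F and DREAM genes, 1.08 for the anaphase-promoting complex, 0.71 for the earlier cell cycle, 0.96 for the tubulins, 0.50 for the growth signals and -0.36 for the other mitosis genes. Csf1r and Gata6 of the growth signals are themselves among the markers that set this scaling, so their values on it are partly fixed in advance.

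Beside these changes, 18 of 19 resident macrophage markers were lower in aged than in young wild type, as were 9 of the 12 markers tested of small macrophages and dendritic cells (1 was higher), and 13 of the 14 B cell markers tested and 10 of the 10 T and NK cell markers tested were higher, and 5 of 6 erythroid markers tested were higher. Their part in the fall of the mitosis and spindle genes was not tested. The scaling to macrophage markers given above shifts all genes of a library alike and does not measure that part.

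The second question was how the libraries labelled Trem1-/- differ from wild type at old age. Anln, Espl1 and Hmmr rose, none of the 50 fell and 47 did not pass the test (limma, adjusted p under 0.05). Of all genes tested, 11.5% rose and 6.82% fell, so the share of these genes called, 3 of 50, was below that of all genes. Before adjustment 17 of the 50 had a p under 0.05, among them Cenpa with a negative log2 fold change. The share of all genes at that unadjusted p is not given here, and 18.4% of all genes passed even after adjustment. The fitted values were nevertheless mostly positive, 46 of 50, with a median log2 fold change of 0.67 against 0.02 over all genes. For 14 genes every library labelled Trem1-/- lay above every aged wild-type library, as for 19.4% of all genes tested, and for 0 genes every library lay below, as for 15.5%.

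The Anln values given above, 44.7 to 58.2 in the libraries labelled Trem1-/- and 9.82 to 27.9 in aged wild type, gave a log2 fold change of 1.72 ± 0.41 (limma adjusted p = 0.0159). Without aged wild-type replicate 3, or replicate 1 or 2 labelled Trem1-/-, the adjusted p was 0.0548, 0.0512 and 0.0503. Espl1 stood at 262 to 272 in the libraries labelled Trem1-/- and at 96.0 to 182 in aged wild type. Its log2 fold change was 1.14 ± 0.21 (limma adjusted p = 0.00577), and it passed the test with each of the 10 libraries left out. Hmmr, which binds spindle microtubules and hyaluronan, had 33.7, 29.6 and 24.1 normalized counts in the libraries labelled Trem1-/-, 8.96, 12.00 and 19.8 in aged wild type, and 72.3, 45.6, 76.9 and 112 in young wild type. Its 3 groups did not overlap, and its log2 fold change was 1.10 ± 0.34 (limma adjusted p = 0.0427). The Hmmr call was lost when any of 7 of the 10 libraries was left out, with limma adjusted p of 0.0556 to 0.141. These were aged wild-type replicate 3 or 4, any replicate labelled Trem1-/-, and young replicate A or C. On the reads Hmmr had an adjusted p of 0.0641 in edgeR and 0.0676 in DESeq2. In limma it was 0.0790 with 2 groups alone and 0.0532 with a pseudocount of 5. The call was kept in 4 of the 10 alternatives other than leaving out a library.

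The largest fitted value after Anln was that of Bub1, a checkpoint kinase. Bub1 had 27.6, 12.02 and 13.8 normalized counts in the libraries labelled Trem1-/-, 3.84, 5.46 and 9.88 in aged wild type, and 28.8, 24.01, 50.4 and 86.00 in young wild type. The groups did not overlap between the 2 genotypes, and the log2 fold change was 1.34 ± 0.50 (limma adjusted p = 0.0828). Ttk, the kinase that starts the checkpoint, had 5.11, 9.61 and 13.8 normalized counts in the libraries labelled Trem1-/-, 15.4, 5.46 and 5.39 in aged wild type, and 24.4, 15.4, 30.02 and 36.03 in young wild type, and Aurka is given above. Their log2 fold changes were the smallest in size, at 0.17 ± 0.48 and 0.12 ± 0.33 (limma adjusted p = 0.836 and 0.83), and the libraries of the 2 genotypes overlapped. For Mki67 it was 0.90 ± 0.39, for Top2a 0.81 ± 0.36, for Ccnb2 1.11 ± 0.39, for Incenp 0.48 ± 0.19 and for Racgap1 0.43 ± 0.23 (limma adjusted p = 0.125, 0.133, 0.0650, 0.0945 and 0.203). Without aged wild-type replicate 6, Mki67 was at 1.33 and Ccnb2 at 1.42 (limma adjusted p = 0.0356 and 0.0467). Ccnb2 also passed without young replicate E (adjusted p = 0.0359), and Incenp passed without aged wild-type replicate 4 (0.63, adjusted p = 0.0303).

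In 4 genes the fitted value was negative. These were Cenpa (-0.88 ± 0.38), Cit (-0.34 ± 0.22), Mad2l1 (-0.19 ± 0.45) and Kif20b (-0.19 ± 0.29), with limma adjusted p of 0.123, 0.286, 0.798 and 0.698. Without aged wild-type replicate 4, Cenpa was at -1.38 with an adjusted p of 0.00367.

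The count of genes called in this comparison depended on single libraries. It was 11 without aged wild-type replicate 6 and 8 without young replicate E. It was 1 without aged wild-type replicate 3 or without replicate 1 or 2 labelled Trem1-/-, and 2 without replicate 3 labelled Trem1-/- or young replicate A or C. Beside it, the libraries labelled Trem1-/- had 16 of 19 resident macrophage markers higher than aged wild type, and 5 of 14 B cell, 7 of 10 T and NK cell and 5 of 6 erythroid markers tested were lower. On the scaling to macrophage markers the median of all genes moved to -1.15 and that of the 50 genes to -0.41. There 0 of the 50 were higher and 7 lower, namely Incenp, Cit, Aurka, Racgap1, Mad2l1, Kif20b and Cenpa. Of all genes tested on that scaling, 15 were higher and 9677 lower, so the share of the 50 called lower was far below that of all genes. The median of the 50 was above that of all genes on both scalings. As this scaling shifts all genes alike, the second is not a separate check of the first.

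Of the 48 other mitosis genes tested, 1 was higher and 1 lower in the libraries labelled Trem1-/- than in aged wild type. Kntc1, a kinetochore protein of the checkpoint, was at 1.01 ± 0.25 (limma adjusted p = 0.0193), and its adjusted p was 0.0676 without aged wild-type replicate 3 and 0.0598 without replicate 1 labelled Trem1-/-. Cdc25b was at -0.93 ± 0.22 (limma adjusted p = 0.0165), and its adjusted p was 0.0582 without aged wild-type replicate 3 and 0.0594 without replicate 2 labelled Trem1-/-. Of the 10 macrophage growth genes tested, 5 were higher and 0 lower, with Csf1r at 0.91 ± 0.17 (limma adjusted p = 0.00548). On the scaling to macrophage markers, with the median of all genes at -1.15, the list medians were -0.65 for the other mitosis genes and -0.37 for the growth genes. The growth genes share Csf1r and Gata6 with the markers that set this scaling, so their median there is partly fixed in advance.

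**Figure D5:**
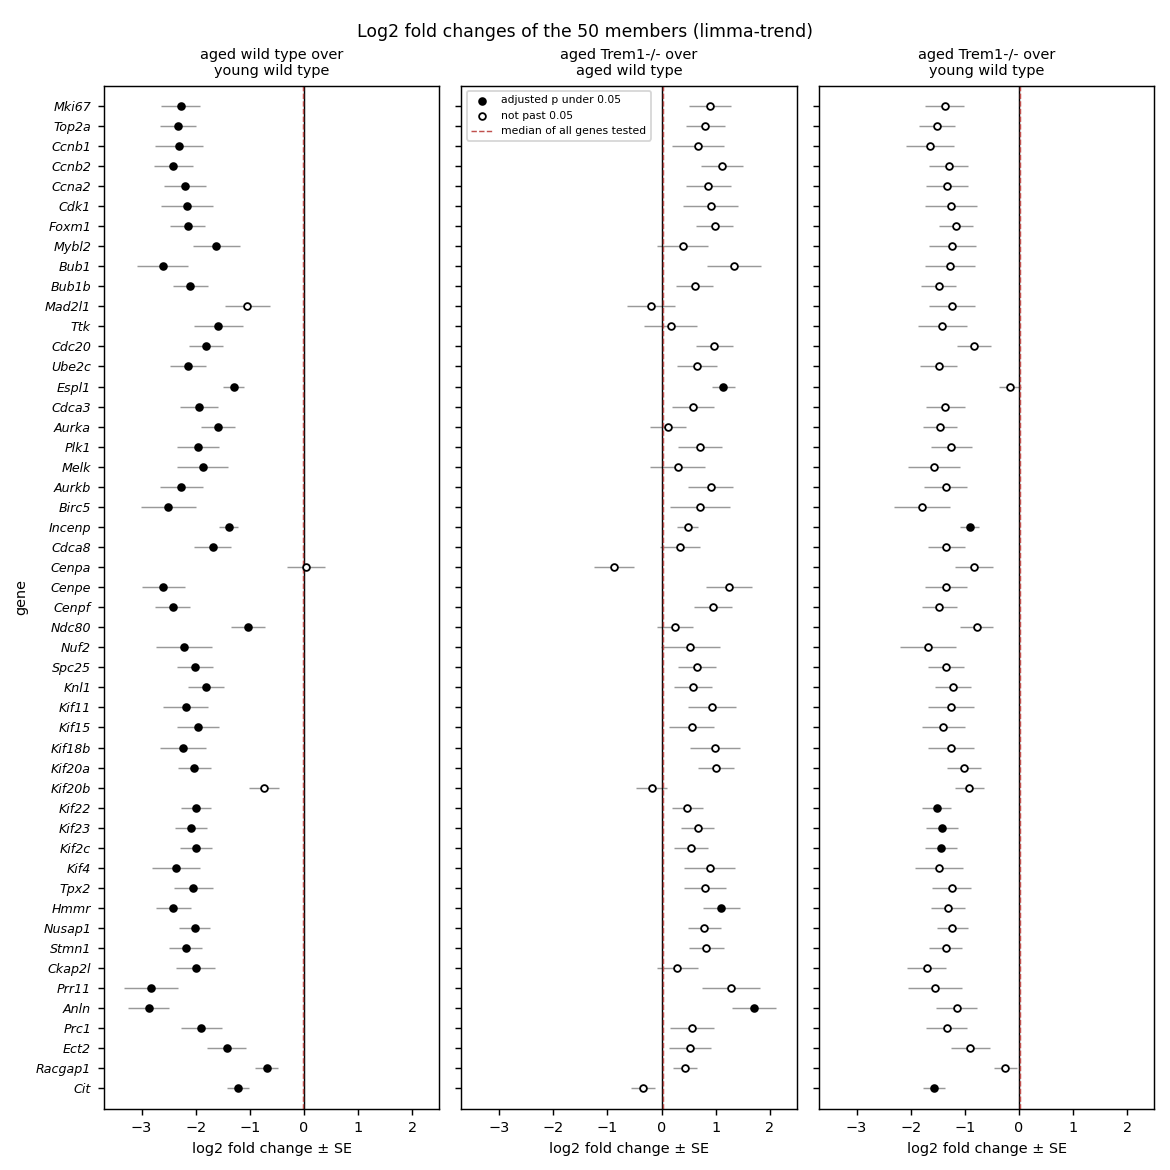
Log2 fold change ± SE (horizontal) of each of the 50 genes (vertical, grouped by role as in the heat map) for aged wild type over young wild type, aged Trem1-/- over aged wild type, and aged Trem1-/- over young wild type, with filled points for an adjusted p under 0.05 and a dashed line at the median of all genes tested. The panels have 47, 3 and 5 filled points, and their medians are -2.02, 0.67 and -1.34, the second of which is -0.41 on the scaling to macrophage markers, where the median of all genes is -1.15. The 3 comparisons share libraries and are not independent.

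The third question was how far the libraries labelled Trem1-/- stood from the young level. Of the 50 genes 5 fell, 0 rose and 45 did not pass the test (limma, adjusted p under 0.05). Of all genes tested, 0.33% fell and 0.591% rose in this comparison (0.921% in all), so a far larger share of the 50 was called than of all genes. The 5 called were the citron kinase gene Cit, the kinesins Kif22, Kif23 and Kif2c, and Incenp. All 50 fitted values were negative, with a median log2 fold change of -1.34 against 0.01 over all genes, and 48 of the 50 had a p under 0.05 before adjustment. The share of all genes at that unadjusted p is not given here. For 43 genes every library labelled Trem1-/- lay below every young one, as for 7.72% of all genes tested, and for 0 genes did they all lie above, as for 8.05%.

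Cit, at 34.4 to 51.1 normalized counts in the libraries labelled Trem1-/- and 90.5 to 158 in young wild type, had a log2 fold change of -1.57 ± 0.20 (limma adjusted p = 0.00905). Without replicate 3 labelled Trem1-/- it was -1.43, with an adjusted p of 0.0598. Kif22, a motor that binds chromosome arms, had 32.7, 25.6 and 26.4 normalized counts in the libraries labelled Trem1-/-, 15.4, 22.9 and 22.5 in aged wild type, and 75.8, 52.96, 92.5 and 124 in young wild type. Every aged library of either genotype was below every young one, and the log2 fold change was -1.52 ± 0.27 (limma adjusted p = 0.0290). Kif2c, which takes microtubules apart at their ends, had 18.4, 20.03 and 11.5 normalized counts in the libraries labelled Trem1-/-, 8.96, 12.00 and 11.7 in aged wild type, and 41.8, 35.7, 40.8 and 72.1 in young wild type. Its aged groups were again both below the young one, and the log2 fold changes of Kif2c, Kif23 and Incenp were -1.45 ± 0.29, -1.42 ± 0.29 and -0.91 ± 0.18 (limma adjusted p = 0.0471, 0.0471 and 0.0401). On the scaling to macrophage markers these 3 had adjusted p of 0.0711, 0.0539 and 0.116, and Kif2c had 0.0514 in edgeR.

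The largest fitted values did not pass the test. Birc5 had 30.6, 29.6 and 6.88 normalized counts in the libraries labelled Trem1-/-, 6.40, 10.9 and 18.9 in aged wild type, and 67.98, 42.5, 61.2 and 116 in young wild type. Replicate 3 labelled Trem1-/- was far below the other 2, and the log2 fold change was -1.80 ± 0.52 (limma adjusted p = 0.131). Ckap2l, a spindle protein, had 34.7, 32.9 and 11.5 normalized counts in the libraries labelled Trem1-/-, 15.4, 19.6 and 23.4 in aged wild type, and 87.2, 57.3, 73.3 and 110.4 in young wild type with the same low replicate (limma log2 fold change -1.71 ± 0.36, adjusted p = 0.0502). Mki67 was at -1.38 ± 0.36, Top2a at -1.51 ± 0.33, Anln at -1.15 ± 0.38, Hmmr at -1.31 ± 0.32 and Cenpa at -0.84 ± 0.35 (limma adjusted p = 0.0955, 0.0564, 0.188, 0.0746 and 0.297). Of the 10 alternatives other than leaving out a library, Ckap2l passed in 7, Top2a in 5, and Mki67 and Hmmr in 3 each. Birc5 and Anln passed in 1 each and Cenpa in 0. In DESeq2 on the reads, all of these but Cenpa passed, with adjusted p of 0.000334 to 0.02995.

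Espl1 and Racgap1 were nearest to the young level. Espl1 was at -0.16 ± 0.20 and Racgap1 at -0.26 ± 0.21 (limma adjusted p = 0.780 and 0.637), and for both the libraries labelled Trem1-/- overlapped the young ones. A p that misses the threshold does not show that the levels were alike.

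The count of 5 was sensitive to the libraries used. It was 13 and 14 without aged wild-type replicates 3 and 4 and 11 without young replicate B. It was 0 without replicate 3 labelled Trem1-/-, 3 without aged wild-type replicate 6, and 1 without replicate 1 or 2 labelled Trem1-/- or young replicate A, C or E. Of the 48 other mitosis genes tested, 6 were lower and 0 higher (Cdca2, Cep55, Iqgap3, Ncapg, Neil3 and Spag5), with a list median of -1.05. None of the 19 macrophage markers was called in this comparison, and 2 B cell markers were higher.

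Over the 3 groups, the mean of the libraries labelled Trem1-/- lay between aged wild type and young wild type for 46 of the 50 genes and below both for the other 4. The young mean was the highest for 49 genes, all but Cenpa, and for 39 genes every young library was above every aged one, as for 5.0% of all genes tested. Of the 50 genes, 3 passed no comparison, and 5 were lower in both comparisons with young wild type. Except for the 39 genes, the matching shares over all genes are not given for these counts. The orders of the group means are therefore not shown to be particular to the 50 genes. The 3 comparisons share libraries, so their values stand side by side here and are not set against each other. For Anln the log2 fold changes were -2.87 for aged against young wild type, 1.72 for aged Trem1-/- against aged wild type and -1.15 for aged Trem1-/- against young wild type. For Espl1 they were -1.30, 1.14 and -0.16, and for Cit -1.23, -0.34 and -1.57.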

How the data were processed

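The table held RNA-seq values of 54532 genes in 10 libraries, 3 aged Trem1-/-, 3 aged wild type and 4 young wild type, grouped by the sample labels. Per the submitters' processing notes, the tools included DESeq2 1.20.0 and featureCounts 1.5.0-p3, with STAR, fastp and the GRCm38 build. Their roles, and whether counting used strand, are not stated. The expression signal deposited by the authors was read as a normalized count, that is, a read count divided by 1 size factor per library. The library columns are headed by sample titles only, so this reading rests on the values themselves. The deposited log2 fold changes and their standard errors compare aged with young wild type, by the authors, and the deposited test score is the Wald statistic, per the file headers. The authors deposited p-values and adjusted p-values for that comparison alone, and those of the other comparisons were computed here.

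All values (100%, within 1e-06) were whole multiples of 1 read, so whole reads were recovered, 2663744 to 5603498 per library. Depth limits precision most for genes under 10 reads, and counting intervals were not used. The main test was limma-trend 3.58.1 in R 4.3.3 on log2(normalized count + 1), with 1 model of the 3 groups, on the 11506 genes with a mean of at least 10, and Benjamini-Hochberg adjustment over all of them at 0.05. A fold change on this scale understates the change of low genes. Alternatives were pseudocounts of 0.5 and 5, a mean of at least 1 or no filter, TMM scaling, scaling by totals without mitochondrial genes and Gm26917, scaling to the geometric mean of 19 macrophage markers, edgeR 4.0.16 (quasi-likelihood) and DESeq2 1.42.0 on the recovered reads, 2 groups alone, and leaving out each library. edgeR called 3922 genes in aged against young wild type, 2302 in aged Trem1-/- against aged wild type and 73 in aged Trem1-/- against young wild type. No 2 replicates agreed within sampling noise.

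The members, gene lists and promoter elements were chosen with earlier results of these data known. Values per library are given for the 2 genes of each role with the highest mean, the 2 largest and 2 smallest changes of each comparison, and genes whose call differed from most. Symbols were matched to GENCODE M21 (98.7%) for exon length and overlaps, and shared transcript sequence was searched with blastn 2.17.0 (at least 95% identity over 100 bases or more). Promoter windows came from RefSeq, GRCm38.p6, and those of Tpx2, Foxm1, Kif20a, Stmn1, Aurkb, Incenp and Ccna2 were not analysed here.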

Additional observations from a re-analysis of the deposited data

Results flagged for a closer look

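In the 4 young wild-type libraries, 2 of the 50 genes had 1 library far from the other 3. For Cdc20, which activates the anaphase-promoting complex, the gap between replicate E and the next highest library made up 0.8317 of the group's range. For Kif2c, a kinesin that shortens microtubules, the same gap made up 0.8316. Both lie just past the 95% critical value of Dixon's test for 4 samples, which chance alone exceeds in about 5% of groups. Replicate E was the highest young library for 49 of the 50 genes.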

How the results depend on the processing

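Of the 50 genes, the number called in aged against young wild type (47) was 44 to 48 with single libraries left out and 30 on the scaling to macrophage markers, 29 lower and Cenpa higher. In aged Trem1-/- against aged wild type (3 called) it was 1 to 11 with single libraries left out, 6 with TMM, and 7, now lower, on the macrophage scaling, which shifts all genes alike. In aged Trem1-/- against young wild type (5 called) it was 0 to 14 with single libraries left out, 9 with a mean of at least 1, 16 with no filter, 8 with totals without mitochondrial genes and Gm26917, 36 with DESeq2 and 21 with 2 groups alone. Over all genes, the calls in aged against young wild type (3837) came to 2753 to 4161 with single libraries left out and 9922 on the macrophage scaling. Those in aged Trem1-/- against aged wild type (2112) came to 1077 to 2800, 9692 on the macrophage scaling and 1174 with 2 groups. Those in aged Trem1-/- against young wild type (106) came to 0 to 268, 263 with no filter, 448 with DESeq2 and 298 with 2 groups. The calls split into 1647 higher and 2190 lower in aged against young wild type, but 2667 and 1440 with totals without mitochondrial genes and 9815 and 107 on the macrophage scaling. Between the aged groups, they split into 1327 higher and 785 lower, but 749 and 1796 with those totals and 15 and 9677 on the macrophage scaling. The cause was not tested.

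Among the lists in aged against young wild type, the other mitosis genes (38 called) came to 30 to 37 with single libraries left out and 19 on the macrophage scaling. The RB, E2F and DREAM genes (9) came to 5 to 9, 7 with totals and 16 on the macrophage scaling. The anaphase-promoting complex (2) came to 0 to 2, 1 with a mean of at least 1, no filter, DESeq2 or 2 groups, 0 with totals and 14 on the macrophage scaling. The earlier cell cycle (8) came to 6 to 9 and 8, mostly higher, the tubulins (5) to 4 to 8 and 10, and the growth signals (6) to 5 to 8 and 5, each pair being the range without single libraries and the macrophage scaling. Between the aged groups, the other mitosis genes (2) came to 0 to 5, 5 with TMM, 17 on the macrophage scaling and 1 with 2 groups, and the growth signals (5) to 3 to 6, 3 on the macrophage scaling and 3 with 2 groups. Against young wild type, the other mitosis genes (6) in aged Trem1-/- came to 0 to 14, 12 with no filter, 3 on the macrophage scaling, 21 with DESeq2 and 13 with 2 groups.

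Of the log2 fold changes of named genes under an alternative, 1412 kept direction and side of the threshold, 87 lost the call, 45 gained one and 35 turned sign. On the macrophage scaling, those that turned in aged against young wild type were Racgap1 (0.52), Mad2l1 (0.12), Kif20b (0.46), Smc4 (0.93), Rbbp4 (0.97), Anapc5 (1.16), Anapc1 (1.04), Ccnd3 (0.72), Tubb5 (0.63) and Csf1r (0.048). In aged Trem1-/- against aged wild type they were Mki67 (-0.27), Top2a (-0.35), Espl1 (-0.021), Hmmr (-0.0019), Aurka (-0.96), Ttk (-0.89), Incenp (-0.68), Racgap1 (-0.73), Csf1r (-0.25) and Kntc1 (-0.10). Csf1r is itself among the markers that set this scaling, so its values on it are partly fixed in advance. In aged against young wild type Cenpa was at -0.028 with TMM and -0.34 to 0.54 with single libraries left out, below 0 without aged wild-type replicate 3 (-0.34), replicate 6 (-0.08) or young replicate B (-0.03). Anapc5 was at 0.14 with totals and -0.085 to 0.039 with single libraries left out, above 0 without aged wild-type replicate 4 or young replicate E, and Anapc1 was at 0.022 with totals. Between the aged groups, Aurka was at -0.073 with totals and -0.071 to 0.35 with single libraries left out, below 0 without aged wild-type replicate 3 or Trem1-/- replicate 3. Ttk was at -0.019 with totals and -0.12 to 0.62 with single libraries left out, below 0 without aged wild-type replicate 4 or 6 or Trem1-/- replicate 3. No paired analysis was possible because the young replicates carry letters and the 2 aged groups share only the number 3.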

Other observations

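Of the 43 mitosis and spindle genes with a promoter window, 10 held no TTTGAA, namely Ccnb1, Mybl2, Bub1, Mad2l1, Melk, Birc5, Cenpe, Nuf2, Nusap1 and Cit. The variant TTCGAA, searched on both strands, stood in the windows of Top2a, Bub1 and Bub1b (6.98% of 43), against 2.57% of the genes tested that have a window. These are matches of letters, and no binding was measured.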
